A study of Drosophila melanogaster with 12 samples.

Results

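Testes of Drosophila males mutant for always early (aly) were compared directly with testes of males mutant for spermatocyte arrest (sa). The comparison covers 6 of the 12 arrays of the study, 3 of aly2/aly5P and 3 of sa1/sa2 males, chosen by their labelled genotype, and all 18769 Drosophila probe sets of the Affymetrix array. Every group was whole testes of 1 day old adults grown at 25 °C, dissected without seminal vesicles and accessory glands, and about 250 ng of total RNA went into each array. The 3 arrays of y w males, called wild type here, gave the level without an arrest. A further 3 arrays of testes with a knockdown of Med22 (Med22RNAi, driven by bam-Gal4) entered no comparison reported here. They entered the estimate of spread, the means over all 12 arrays that chose bright probe sets and 1 probe set per gene, and the alternative scalings. The methods of the study describe the Med22RNAi arrays as analysed with published red,e, aly and sa arrays. The labels of the wild-type arrays read yw instead, and the sources used here do not resolve this. Both mutants carry 2 different alleles of the gene over each other, and neither is limited to 1 cell type, so the somatic cells of the testis carry the mutations too. Whether the 3 arrays of a genotype came from separate groups of flies is not stated for the mutants, so the p-values measure the spread between these arrays.

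In the Drosophila testis, spermatocytes spend an extended G2 phase in which they switch on a large set of genes for the meiotic divisions and for building sperm. The testis meiotic arrest complex (tMAC), which contains Aly, and the testis-specific TAFs (tTAFs), paralogs of subunits of the general transcription factor TFIID that include Sa, are both needed for this program. Spermatocytes that lack either stop at the transition from G2 to meiosis I and form no spermatids. Mutants of the aly class are known to fail also in the transcription of the G2/M genes CycB, twe and bol, while mutants of the can class, to which sa belongs, are known to keep much of it. The comparison asks which transcripts, these and others, separate the 2 classes of arrest.

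The level of a probe set is a log2 signal, and a difference of 1 is 2-fold. A probe set was called different where the adjusted p of limma was under 0.05 and the difference was at least 4-fold. Where all 3 arrays of a genotype lay below a log2 level of 3, near the lowest value of 2.11, the genotype was set at 3 and the fold is given as a lower bound. RNA of whole testes cannot tell fewer cells of a kind from less RNA per cell, and both arrests alter which cells are present.

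The transcript of sa itself separated the genotypes as labelled. Its log2 level was 13.64, 13.72 and 13.58 on the aly arrays, 5.98, 5.54 and 6.01 on the sa arrays, and 10.63, 10.91 and 10.96 in wild type. It was the largest difference in favour of aly, at 7.80 (standard error 0.14, adjusted p = 2.24e-09 from limma). The aly probe set differed by 0.25 (adjusted p = 0.699 from limma), with 7.16, 7.44 and 7.76 in aly, 6.91, 7.89 and 6.82 in sa, and 6.32, 6.58 and 6.77 in wild type. Where its probes lie relative to the lesions of the 2 alleles is not given in the sources used here, so it checks nothing. The pigment gene y was at 2.18 to 2.25 in wild type, which carries a y mutation, at 5.17 to 5.23 in aly and at 6.10 to 6.35 in sa. The body colour gene e was at 3.09 to 3.97 in wild type and at 2.16 to 2.37 in both mutants. Rbp4, an RNA-binding protein gene of spermatocytes, was at 14.35 to 14.47 in aly and 13.45 to 13.82 in sa, and bam, which ends the spermatogonial divisions, at 9.73 to 9.91 and 8.45 to 8.58. The germ line gene vas lay at the lowest value on all 6 mutant arrays, so its probe set cannot compare the mutants and is not read as a loss.

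The arrays of one genotype correlated at 0.993 to 0.996 for aly and 0.989 to 0.996 for sa, and arrays of different mutants at 0.902 to 0.920. One array stood somewhat apart. On sa replicate 2, 655 probe sets lay at least 2-fold below both other sa arrays, against 26 and 126 for replicates 1 and 3, and results that rest on it are given with its value. Without it, 1463 probe sets were called higher in sa and 631 higher in aly, against the 1374 and 556 reported next. The median of all probe sets was 3.07 to 3.11 in aly and 3.91 to 4.02 in sa, whereas over the 8039 probe sets with a mean of at least 6 it was 9.66 to 9.70 in aly and 9.67 to 9.70 in sa. Setting all array medians equal adds 0.88 to every aly minus sa difference, and setting the medians of the bright probe sets equal adds 0.004. Values here are as deposited.

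Many more probe sets were higher in sa than in aly than the reverse. Of 18769, limma called 1374 (7.32%) higher in sa and 556 (2.96%) higher in aly. The 1374 with higher levels in sa had a median difference of 4.46, and 565 of them differed by at least 32-fold, while the 556 higher in aly had a median of 2.55 with 20 past 32-fold. At an adjusted p under 0.05 with no limit on the fold, 31.3% of probe sets differed, 2718 of them higher in sa and 3154 higher in aly. These are the general counts to set beside each list below that is counted by the adjusted p alone. The arrays of the mutants did not overlap for any called probe set, nor for 40.3% of all probe sets. With the array medians set equal, the counts were 1068 higher in sa and 1819 higher in aly, and with a further quantile normalization 1192 and 913.

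**Figure D1:**
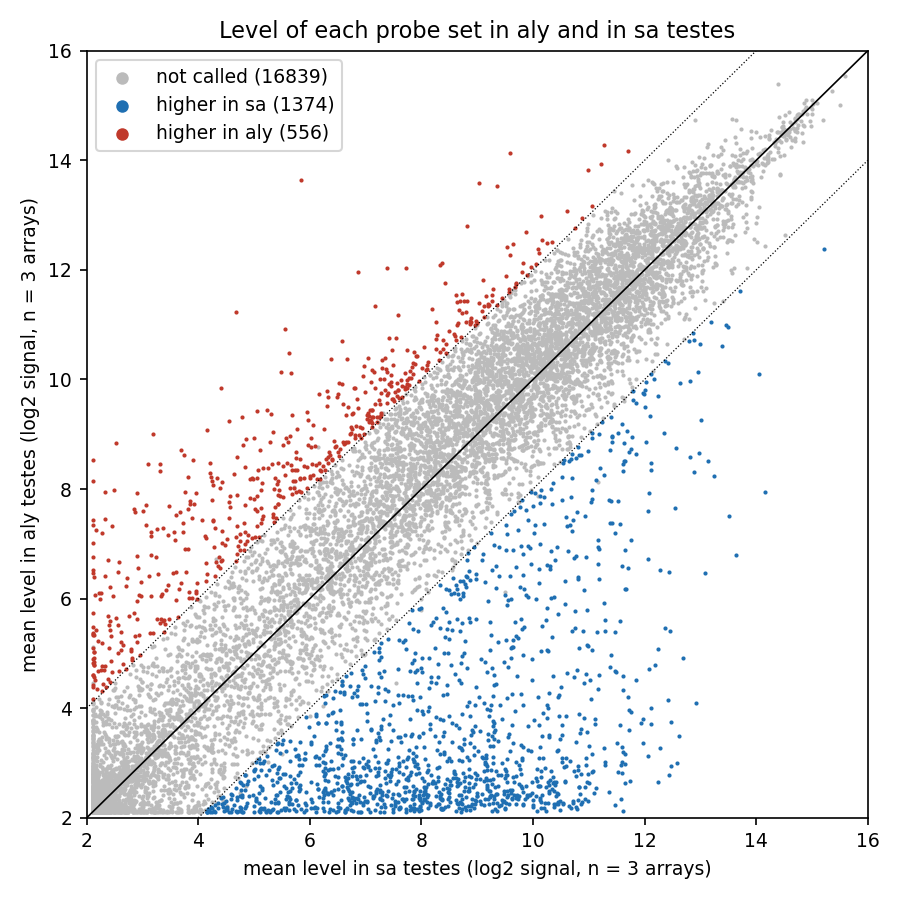
Each point is 1 of 18769 probe sets, with its mean log2 level over 3 sa arrays on the horizontal axis and over 3 aly arrays on the vertical axis. The solid line marks equal levels and the dotted lines 4-fold, with 1374 probe sets called higher in sa (blue), many of them near the lowest aly level, and 556 called higher in aly (red).

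The 2 groups also differed in where wild type lay. Of the 1374 probe sets higher in sa, 1024 were at least 2-fold below wild type in both mutants, 168 were within 2-fold of wild type in sa and below it in aly, 127 were above wild type in sa and within 2-fold in aly, and 47 were above in sa and below in aly. Their median log2 level was 11.48 in wild type, 8.51 in sa and 2.97 in aly, and for 588 (42.8%) all 3 aly arrays lay below 3. Of the 556 higher in aly, 287 were above wild type in aly and within 2-fold of it in sa, and 202 were above it in both. Their median level was 4.58 in wild type, 8.45 in aly and 5.57 in sa. Among the higher in aly, 22 were above wild type in aly and below it in sa, 28 within 2-fold in aly and below in sa, and 17 below in both.

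Among the genes for entry into meiosis I, CycB and bol were called higher in sa. CycB, the cyclin that activates Cdk1 at the G2/M transition (chromosome arm 2R), had log2 levels of 4.95, 4.09 and 3.76 in aly and 9.65, 9.61 and 9.60 in sa, with 7.45, 7.96 and 7.67 in wild type. The sa arrays thus lay above wild type, at 379% of its level, and the aly arrays below it, at 9.29%. The difference was 5.35 (standard error 0.27, adjusted p = 6.15e-07 from limma). The RNA-binding protein gene bol, which promotes translation of twe mRNA, lay at 8.37, 8.57 and 8.44 in aly, at 11.99, 10.54 and 12.32 in sa and at 13.31, 13.18 and 12.92 in wild type. It was higher in sa by 3.16 (standard error 0.40, adjusted p = 0.000292 from limma), with sa replicate 2 lowest of its group. Without that array the difference was 3.70. Both mutants were below wild type for bol, aly at 3.91% and sa at 34.8% of its level. A pair of further probe sets of bol lay near the lowest value on every array.

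The Cdc25 phosphatase gene twe, which activates Cdk1 for meiosis, differed by less than 4-fold. Its level was 6.33, 6.51 and 6.09 in aly, 7.74, 7.28 and 7.65 in sa, and 7.40, 8.23 and 7.60 in wild type. All 3 sa arrays lay above all 3 aly arrays, and the difference of 1.25 (standard error 0.22) had an adjusted p = 0.00189 from limma. With the array medians set equal it was 0.36, in the same direction.

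Of 14 measured G2/M regulators, 2 were called higher in sa and 0 higher in aly, where 10.4% and 3.75% of all 11982 genes were called, and 6 were higher in sa and 0 in aly at an adjusted p under 0.05 with no limit on the fold (8 and 0 at an unadjusted p under 0.05). Besides CycB, bol and twe these were Cks30A, whose product binds Cdk1, which lay at 10.92, 11.02 and 11.17 in sa and at 9.38, 9.63 and 9.62 in aly. The phosphatase inhibitor gene endos followed, with 12.56, 12.41 and 12.94 in sa and 11.83, 11.86 and 11.77 in aly. The APC activator gene fzr lay at 6.76, 5.97 and 6.45 in sa and 5.35, 5.61 and 4.70 in aly. Their differences were 1.49, 0.81 and 1.17, with adjusted p = 5.03e-06, 0.000643 and 0.00993 from limma. With the array medians set equal, endos moved to the aly side by 0.07, while Cks30A and fzr stayed on the sa side under every alternative run. The phosphatase subunit gene tws lay at 8.47, 6.51 and 8.69 in sa and at 6.37, 6.96 and 5.76 in aly, so that sa replicate 2 overlapped the aly arrays (adjusted p = 0.0798 from limma).

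The other G2/M regulators were close in both mutants. The second B-type cyclin gene CycB3 lay at 10.64, 10.72 and 10.64 in aly and 10.40, 10.60 and 10.16 in sa. The Greatwall kinase gene gwl lay at 10.58 to 10.80 in aly and 10.67 to 10.98 in sa, both above the 7.75 to 8.59 of wild type. The APC activator gene fzy was at 11.40 to 11.50 and 11.19 to 11.28, the Cks gene Cks85A at 11.78 to 11.96 and 12.17 to 12.53, and rux, an inhibitor of Cdk1, at 12.58 to 12.69 and 12.41 to 12.74. The female meiotic APC activator gene cort was at 4.70 to 5.37 and 4.39 to 4.95, and the centriole kinase gene SAK at 2.46 to 2.55 in both. For these 7 genes limma gave no adjusted p under 0.05, and the widest of their differences was Cks85A, at -0.45 for aly minus sa. The median over the list was -0.63, or 0.25 with the array medians set equal, so the list as a whole has no direction that holds under both scalings.

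**Figure D2:**
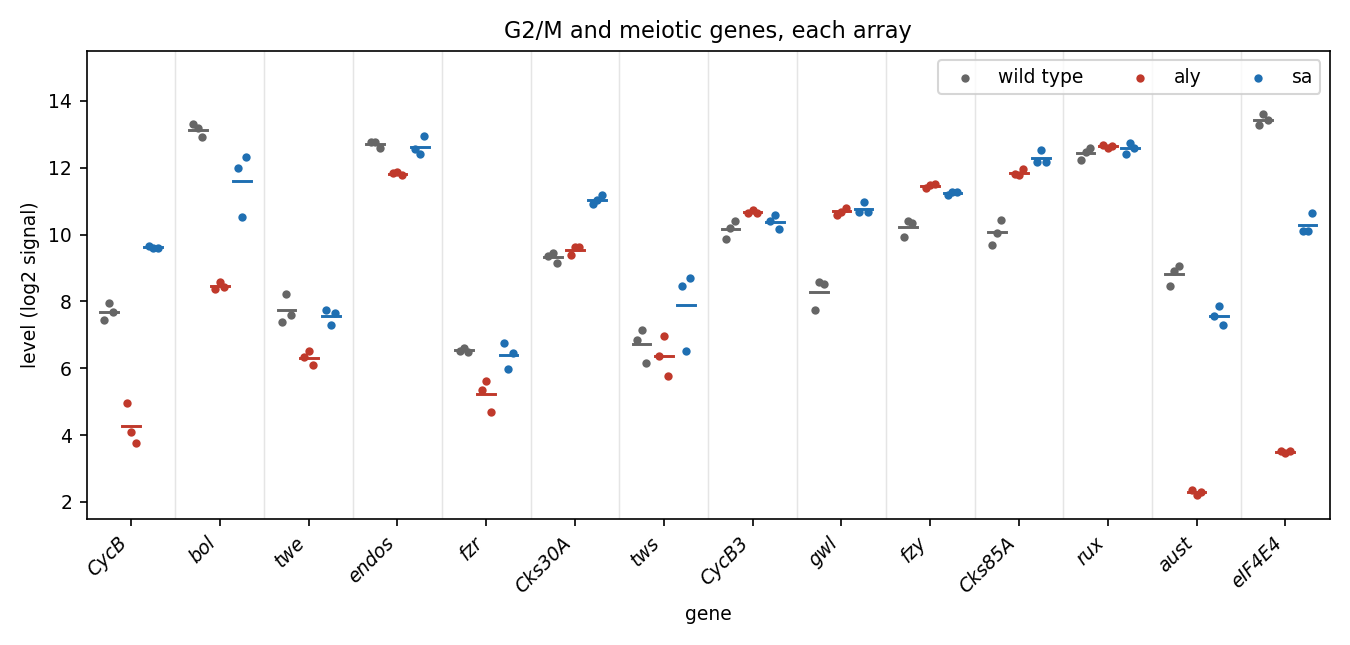
Points are the log2 levels of 12 G2/M regulators, the meiotic gene aust and the translation factor gene eIF4E4 on each of 3 wild-type (grey), 3 aly (red) and 3 sa (blue) arrays, and bars are group means. CycB in sa (9.60 to 9.65) lies above wild type and in aly (3.76 to 4.95) below it, while CycB3, gwl, fzy and rux lie close together in both mutants.

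Machinery of the meiotic divisions other than the G2/M regulators differed gene by gene. The testis paralog of the chromosomal passenger subunit borealin, aust, was higher in sa, with 7.55, 7.88 and 7.29 in sa, 2.36, 2.20 and 2.31 in aly and 8.45, 8.91 and 9.07 in wild type. It was at least 23.8-fold higher in sa (adjusted p = 6.22e-08 from limma). Its general paralog borr lay at 13.64 to 13.76 in aly and 12.74 to 12.92 in sa, and the Aurora B kinase gene aurB at 10.87 to 10.97 and 9.01 to 9.43, on the aly side by 0.89 and 1.67 (adjusted p = 0.000653 and 6.39e-05 from limma) and so under the 4-fold limit. Of 10 measured genes of the meiotic spindle and cytokinesis 1 was called higher in sa and 0 higher in aly, close to the 10.4% and 3.75% of all genes, with 2 and 7 at an adjusted p under 0.05 and no fold limit. Of 17 genes of the anaphase-promoting complex and the spindle checkpoint, 0 were called higher in sa and 2 higher in aly, with 2 and 9 past the adjusted p alone. These were the checkpoint genes Mad1, at 12.05 to 12.20 in aly and 9.69 to 9.90 in sa, and Zw10, at 9.82 to 10.02 and 7.46 to 8.14. Zw10 fell short of 4-fold without sa replicate 3 (1.94).

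Of 10 genes of chromosome conjunction and cohesion, 2 were called higher in sa and 2 higher in aly, where 10.4% and 3.75% of all genes were, and 4 and 5 passed the adjusted p alone. The cohesin-related genes sunn and SA2, which act in meiotic chromosomes, were on the aly side. The levels of sunn were 6.65, 6.52 and 5.95 in aly and 2.54, 2.87 and 2.73 in sa, close to the 2.41, 2.52 and 2.26 of wild type, which made it at least 10.3-fold higher in aly (adjusted p = 4.43e-07 from limma). SA2 lay at 10.70, 10.51 and 10.29 in aly and 8.58, 8.35 and 8.09 in sa. On the sa side were tef, needed for pairing of autosomes in male meiosis, at 7.23, 5.82 and 6.91 in sa and 4.59 ± 0.63 in aly (mean and SD, n = 3), and mei-P26, which also limits spermatogonial divisions, at 9.28, 7.64 and 9.52 in sa and 6.48, 7.36 and 6.30 in aly. In both genes sa replicate 2 was the lowest of its group. Their differences of 2.06 and 2.10 fell short of 4-fold without sa replicate 1 (1.77 and 1.87) or 3 (1.93 and 1.75) or without aly replicate 3 (1.76 and 1.90), and that of mei-P26 also without aly replicate 1 (1.99).

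Translation factors used in spermatocytes included a gene with a wide difference. The gene eIF4E4, for a form of the cap-binding protein, lay at 3.52, 3.47 and 3.53 in aly and at 10.12, 10.11 and 10.63 in sa, against 13.29, 13.60 and 13.43 in wild type. It was higher in sa by 6.78 (standard error 0.21, adjusted p = 3.32e-08 from limma). The other listed forms did not share this. The gene eIF4E3 was at 14.71 to 14.84 in aly and 13.52 to 13.61 in sa, eIF4E5 at 11.93 to 12.16 and 11.90 to 12.46, and eIF4E7 at 9.94 to 10.26 and 10.19 to 10.89. Of 15 genes of meiotic translation and RNA binding 2 were called higher in sa and 0 in aly, where 10.4% and 3.75% of all genes were, and 3 and 3 passed the adjusted p alone. The other called gene was the scaffold gene eIF4G2, at 13.40, 11.69 and 13.57 in sa and 10.62, 11.04 and 10.48 in aly. Its difference of 2.17 fell short of 4-fold without sa replicate 1 (1.92) or 3 (1.83).

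The depth of loss differed between the arrests. A total of 1786 probe sets (9.52%) were called at least 4-fold lower than wild type in the mean of both mutants, a contrast that does not use the difference between them. Of these, 1114 (62.4%) were lower in aly than in sa and 26 (1.46%) lower in sa than in aly. Their median level was 11.37 in wild type, 3.12 in aly and 7.99 in sa. The median remaining level was 1.03% of wild type in aly (quartiles 0.219% and 6.39%) and 12.8% in sa (5.89% and 23.6%). Under 1% of wild type remained for 889 of them in aly and for 60 in sa, and at least 25% for 38 in aly and 406 in sa. All 3 aly arrays lay below 3 for 715, all 3 sa arrays for 144 (8.06%) and both for 133, so for those the loss is measured only as a bound.

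The median aly minus sa difference over the 1786 was -3.20 (quartiles -5.56 and -0.83), against 0.00 over all probe sets, and 247 were at least 100-fold lower in aly. The remaining 646 were not called different, 177 of them lower in aly and 36 lower in sa at an adjusted p under 0.05. For 1326 probe sets the loss was called in aly and in sa each on its own. Of those, 797 were lower in aly and 9 lower in sa, with 0.637% and 9.17% of the wild-type level left at the median.

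**Figure D3:**
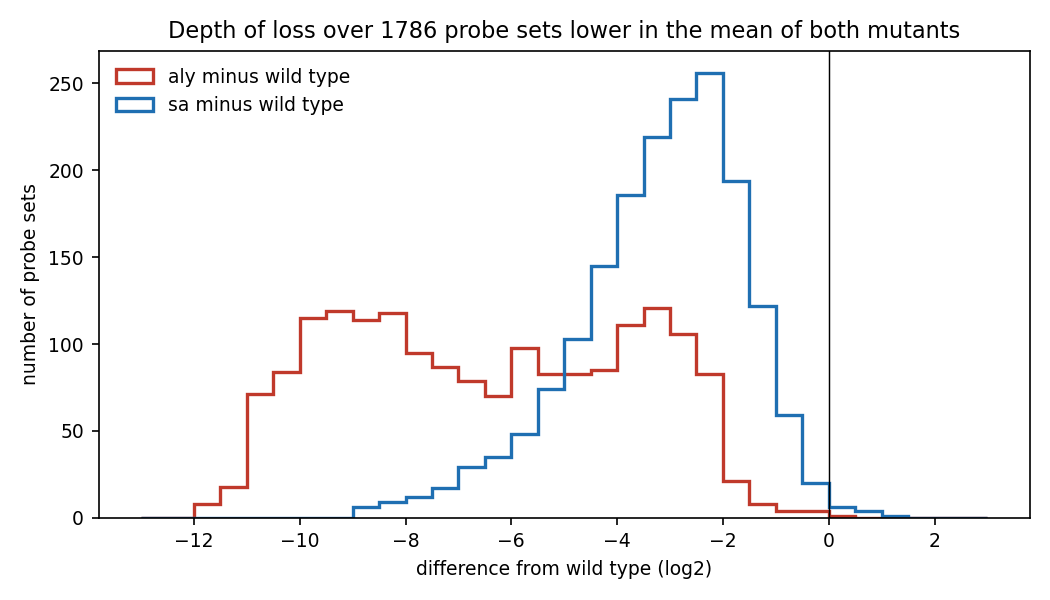
The horizontal axis is the log2 difference from wild type and the vertical axis the number of probe sets, for the 1786 lower in the mean of both mutants, counted for aly (red) and for sa (blue). Most sa values lie between -5 and -1, while the aly values spread from about -2 to -12, with 715 probe sets below a log2 level of 3 on all aly arrays.

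Probe sets were then ranked by the difference, or by its lower bound where all arrays of a mutant lay below 3, which places such probe sets further down. The first 12 genes on the sa side were CG31870, CG16719, CG30039, CG12860, CG5762, CG9016, CG15198, CG12229, CG14718, tomboy20, CG3222 and CG30487, most of them genes without a given name. Their fitted differences were 8.62 to 9.65, and all 12 belonged to the 1786 lower in the mean of both mutants. CG31870 lay at 14.25, 14.49 and 14.76 in wild type, 12.19, 12.38 and 12.72 in sa and 2.56, 2.56 and 3.21 in aly, so that 23.8% of the wild-type level remained in sa and 0.0296% in aly. CG15198 kept the most in sa among the 12, at 53.0% of wild type, with 12.43, 12.34 and 12.67 in sa and 3.75, 3.41 and 4.07 in aly. CG12860 kept the least, at 14.3%, with 12.26, 12.09 and 12.48 in sa and 2.75, 3.42 and 3.62 in aly. CG12229, CG30487 and tomboy20 lay below 3 on every aly array and were at least 426-fold, 394-fold and 401-fold higher in sa. For all 12 the sa arrays lay below the wild-type arrays, and far above the aly arrays.

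Among the lists, paralogs of mitochondrial proteins used in the testis were the group most often higher in sa. Of 27 measured, 19 were called higher in sa and 0 in aly, against 16.7% and 2.34% of the 6542 genes with a wild-type mean of at least 6, and their median aly minus sa difference was -4.53. Past the adjusted p alone, 21 were higher in sa and 4 in aly. The outer membrane import receptor gene tomboy20 lay at 11.45, 11.72 and 11.78 in sa and 2.73, 2.28 and 2.89 in aly, from 13.60 to 13.76 in wild type. The cytochrome oxidase subunit genes COX5BL (at least 254-fold) and COX6AL (at least 113-fold) and the ATP synthase gene ATPsynCF6L (at least 254-fold) followed, each with all aly arrays below 3. The inner membrane translocase gene ttm3 was at 9.61, 9.90 and 9.67 in sa and 2.11, 2.25 and 2.65 in aly, at least 106-fold higher in sa. Against the list, the ATP synthase gene ATPsynbetaL lay at 12.61, 12.77 and 12.62 in aly and 11.55, 11.64 and 11.25 in sa, above the 9.59 to 10.05 of wild type in both (difference 1.19, adjusted p = 0.000132 from limma, under 4-fold). The weakest of the 19 was COX6AL2, at 5.70, 4.52 and 6.98 in sa and 3.12, 3.09 and 3.55 in aly, which fell short of 4-fold without sa replicate 3 (1.86).

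The mitofusin gene fzo, needed for fusion of mitochondria in spermatids and one of the genes the study examined by in situ hybridization, lay at 2.67, 2.91 and 2.88 in aly and 8.76, 8.22 and 8.79 in sa, from 10.41, 10.62 and 10.05 in wild type. It was at least 48.1-fold higher in sa. CG9173, another gene of that set, lay at 2.68, 3.31 and 3.36 in aly and 8.53, 9.15 and 8.76 in sa, a difference of 5.70. The others of the set were closer. The levels of janB were 9.60, 9.78 and 9.74 in aly and 10.60, 9.96 and 11.19 in sa, and of fest, a regulator of translation in spermatocytes, 13.10, 13.13 and 12.69 and 14.26, 13.29 and 14.47. CG3927 lay at 13.93 to 14.09 in aly and 12.40, 12.66 and 12.18 in sa, and CG46298 at 13.72, 13.60 and 13.49 and 12.52, 12.31 and 12.68. The last 2 were on the aly side by 1.59 and 1.10, under the 4-fold limit.

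Of 12 measured genes for packing sperm DNA, 5 were called higher in sa and 0 in aly. Among all genes 10.4% and 3.75% were called. The shares were 16.7% and 2.34% of the 6542 genes with a wild-type mean of at least 6. Past the adjusted p alone the list had 8 and 1. The histone-like chromatin protein gene Mst77F lay at 13.56, 13.15 and 13.81 in sa and 7.41, 7.66 and 7.48 in aly, from 15.04 to 15.14 in wild type. Mst33A was at 10.55, 9.40 and 11.20 in sa and 2.62, 2.70 and 2.66 in aly, at least 167-fold higher in sa. CG30056 was at least 60.0-fold higher, and ddbt, needed to keep telomeres capped in sperm, at least 72.3-fold. The protamine genes differed from each other. ProtB lay at 7.76, 7.53 and 8.73 in sa and 5.12, 4.55 and 4.33 in aly, a difference of 3.34, while ProtA lay at 10.57, 10.59 and 10.95 in sa and 9.90, 9.54 and 9.58 in aly, a difference of 1.03. The transition protein gene Tpl94D was at 9.13 to 9.84 in sa and 7.60 to 8.13 in aly. In sa all 3 genes were well below wild type, where ProtA lay at 14.15 to 14.62.

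Of 23 genes of the sperm tail and axoneme, 8 were called higher in sa and 0 in aly. Among all genes 10.4% and 3.75% were called. The shares were 16.7% and 2.34% of the 6542 genes with a wild-type mean of at least 6. Past the adjusted p alone the list had 11 and 4. Tektin-A, a filament protein gene of axonemal microtubules, lay at 11.29 ± 0.28 in sa and 2.92, 2.93 and 3.06 in aly, and Tektin-C at 10.75, 11.02 and 11.14 and 4.94, 6.20 and 4.35. The sperm tail gene djl was at 10.59, 9.71 and 11.26 in sa and 3.99, 4.48 and 2.62 in aly, Pif1A at 8.59 to 9.20 and 3.18 to 3.38, and the sperm leucyl aminopeptidase gene S-Lap5 at 11.34 to 11.89 and 5.99 to 6.39. The remaining called members were gudu, dj and S-Lap7, of which S-Lap7 fell short of 4-fold without aly replicate 1 (1.99). Other tail genes kept similar levels in both mutants. The gene Mst98Ca was at 13.58 to 13.70 in aly and 13.50 to 13.73 in sa, and Mst84Da at 13.40 to 13.57 and 13.13 to 13.52. Those groups overlapped for both genes. The testis tubulin gene betaTub85D, counted with the meiotic spindle and cytokinesis genes instead, was at 13.10 to 13.14 in aly and 12.49 to 12.88 in sa. The median of the sperm tail list was -0.27, or 0.62 with the array medians set equal, so that its sign differs between the scalings.

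The comet and cup genes, known for transcription after meiosis, gave 7 of 15 called higher in sa and 0 higher in aly. Among all genes, 10.4% and 3.75% were called. The shares were 16.7% and 2.34% of the 6542 genes with a wild-type mean of at least 6. Past the adjusted p alone the list had 8 and 4. The levels of c-cup were 9.98, 10.22 and 10.24 in sa and 2.38, 2.66 and 3.19 in aly, and of w-cup 9.07, 7.77 and 10.74 and 2.32, 2.46 and 2.25, which made w-cup at least 73.2-fold higher in sa. The genes p-cup, h-cup and d-cup were at 8.45 to 8.98, 7.78 to 8.06 and 7.25 to 7.33 in sa and at or below 3.15 in aly. The gene t-cup was lost in both, at 2.40 to 2.61 in aly and 2.85, 2.61 and 5.22 in sa, from 12.29 to 12.31 in wild type. Against the list, hale lay at 12.33, 12.49 and 12.51 in aly and 10.88, 11.07 and 10.94 in sa, from 12.49 to 12.65 in wild type, and schuy and f-cup were on the aly side by 1.19 and 1.16. The 3 differences had adjusted p = 7.86e-05, 0.0301 and 0.000219 from limma and were under 4-fold.

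Of 13 testis-specific proteasome subunits, 6 were called higher in sa and 0 in aly. Among all genes 10.4% and 3.75% were called. The shares were 16.7% and 2.34% of the 6542 genes with a wild-type mean of at least 6. Past the adjusted p alone the list had 7 and 4. Prosbeta5R1, a catalytic subunit gene, was at 10.67, 11.16 and 10.97 in sa and 2.34, 2.26 and 2.46 in aly, at least 245-fold higher in sa, and Prosalpha6T, a subunit of the outer ring, at least 140-fold, from 9.84, 10.31 and 10.23 in sa. Its relative Prosalpha4T1 did not share this, with 6.97, 6.97 and 7.19 in aly and 6.71, 7.42 and 7.05 in sa, both under the 10.91 to 11.37 of wild type. Prosbeta2R1 lay at 10.82 to 10.91 in aly and 9.12 to 9.65 in sa, and the base subunit gene Rpt4R at 13.53 to 13.57 and 11.73 to 12.13, on the aly side by 1.56 and 1.58. All 7 measured Y-linked genes were called lower than wild type in aly and in sa, as were 10.3% and 7.69% of all probe sets. Among them, Pp1-Y2, a phosphatase gene, was at least 15.7-fold higher in sa, with 7.13, 6.59 and 7.21 against 2.26, 2.77 and 2.14. ORY was at 4.12, 3.19 and 6.21 in sa and 2.18 to 2.20 in aly (at least 2.85-fold), a call that was lost with any single aly array or with sa replicate 3 left out. Of 13 measured genes for individualization of sperm, 2 were called higher in sa and 1, Dark, higher in aly. Among all genes, 10.4% and 3.75% were called. Past the adjusted p alone the list had 2 and 5, with a median difference of 0.12. On the sa side Roc1b, a ubiquitin ligase subunit, lay at 8.38, 8.55 and 8.57 in sa and 3.74, 4.16 and 3.68 in aly. Its partner klhl10 lay at 7.56, 2.81 and 7.89 in sa and 2.18 to 2.20 in aly, so that the call rests on 2 of the sa arrays, and of the 12 arrays sa replicate 2 was the only one whose removal kept it.

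**Figure D4:**
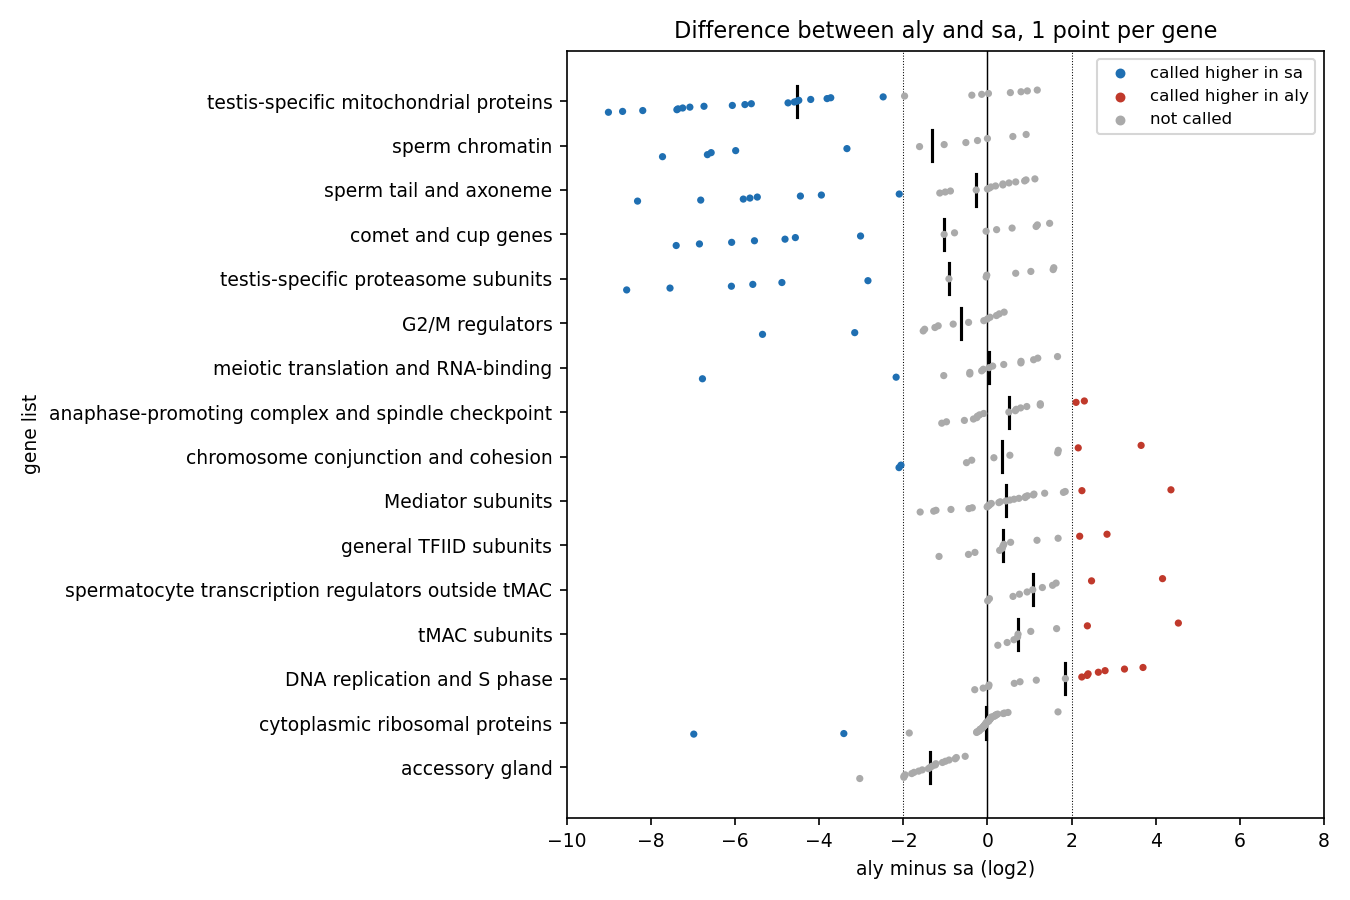
Each point is the aly minus sa difference (log2) of 1 gene, grouped by list in rows with the order within a row set by value, blue where called higher in sa, red where called higher in aly and grey where not called, with the list median as a black bar and 4-fold as dotted lines. The mitochondrial list has its median at -4.53 and the replication list at 1.85. With the array medians set equal every point moves right by 0.88. This takes the medians of the G2/M, the sperm tail and the cytoplasmic ribosomal lists past 0.

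On the aly side stood transcription regulators of spermatocytes. Of 9 listed genes of tMAC, 2 were called higher in aly and 0 in sa, where 3.75% and 10.4% of all genes were. At an adjusted p under 0.05 alone, 7 were higher in aly, as were 3154 of all 18769 probe sets. The gene topi, which encodes a zinc finger subunit, lay at 13.95, 14.32 and 14.11 in aly, 9.43, 9.80 and 9.53 in sa and 10.93 to 11.06 in wild type. It was thus above wild type in aly and below it in sa, with a difference of 4.54 (standard error 0.12, adjusted p = 1.31e-08 from limma). The other called gene was the homeodomain gene vis, at 12.63, 12.58 and 12.42 in aly and 10.22, 10.12 and 10.16 in sa, a difference of 2.38. Both vis and achi are counted among the 9, although the study describes Achi/Vis as peripheral to tMAC. Further members were tomb, at 12.23 to 12.33 in aly and 10.31 to 10.92 in sa, and comr, at 10.27 to 10.60 and 9.17 to 9.63, neither of which reached 4-fold. The probe set of vis can share sequence with its near copy achi, which lay at 8.96 to 9.35 in aly and 8.54 to 8.60 in sa.

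The tTAFs other than sa were on the aly side as well, under the 4-fold limit. Mia lay at 11.63, 11.74 and 11.51 in aly and 10.30, 10.13 and 10.18 in sa, can at 11.27 to 11.74 and 10.05 to 10.65, and nht at 12.50 to 12.59 and 11.72 to 12.04. Their differences were 1.42, 1.13 and 0.70 (adjusted p = 3.65e-06, 0.00191 and 0.00177 from limma). Among 11 regulators outside tMAC, the testis bromodomain genes tbrd-2 and tbrd-1 were called higher in aly, where 3.75% of all genes were. The levels of tbrd-2 were 13.22, 13.91 and 13.45 in aly, 9.72, 9.35 and 9.02 in sa and 10.05, 10.23 and 10.04 in wild type, and those of tbrd-1 were 14.11, 14.32 and 14.08, 11.85, 11.66 and 11.58, and 11.23, 11.38 and 11.37. The third gene of this family, tbrd-3, was on the same side by 1.55, under 4-fold. Of the 11, 9 were higher in aly at an adjusted p under 0.05 with no limit on the fold, and 0 were higher in sa. Over all 18769 probe sets, 3154 were higher in aly and 2718 higher in sa by that measure.

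Among general transcription factors, 2 of 12 TFIID subunits and 2 of 27 Mediator subunits were called higher in aly and 0 of either in sa, where 3.75% and 10.4% of all genes were. The TFIID subunits were Taf1, the largest subunit, at 11.43, 11.79 and 11.48 in aly and 8.79, 8.79 and 8.59 in sa, near the 8.38 to 8.63 of wild type, and the TATA-binding protein gene Tbp, at 9.19, 9.42 and 9.36 in aly and 7.13 ± 0.18 in sa. Past the adjusted p alone, 4 TFIID subunits were higher in aly and 1, Taf10b, higher in sa, by 1.15. The Mediator subunits were MED24, at 9.39, 9.45 and 9.43 in aly and 5.54, 5.84 and 3.79 in sa, and MED16, at 6.32, 6.79 and 6.69 and 4.21, 4.72 and 4.12. MED19 was on the other side by 1.28, with 10.77 to 11.18 in aly and 12.17 to 12.27 in sa. Of those 27, 10 were higher in aly and 5 higher in sa at an adjusted p under 0.05, against 3154 and 2718 of all 18769 probe sets.

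Genes of DNA replication were also on the aly side. Of 15 measured, 7 were called higher in aly, against 3.75% of all genes, and 0 higher in sa. Past the adjusted p alone the list had 10 and 0, against 3154 and 2718 of all 18769 probe sets. At an unadjusted p under 0.05 it had 11 and 0. Cdc6, which loads the replicative helicase, lay at 6.86, 7.67 and 6.94 in aly and 3.37, 3.95 and 3.04 in sa, near the 2.86 to 2.95 of wild type (difference 3.70, standard error 0.33, adjusted p = 3.15e-05 from limma). The polymerase alpha gene PolA1 was at 8.13, 8.39 and 8.05 in aly and 5.29, 5.56 and 3.93 in sa. The origin recognition genes Orc2, at 10.48, 10.50 and 10.63 and 7.68, 8.36 and 7.18, and Orc1, at 7.26, 7.28 and 7.44 and 4.44, 5.26 and 4.36, were higher by 2.80 and 2.64. The helicase genes Mcm5 (2.39) and dpa (2.37) and the ribonucleotide reductase gene RnrL (2.24) made up the rest. In contrast PCNA was at 11.63, 11.65 and 11.79 in aly and 11.63, 11.69 and 11.62 in sa, Orc5 at 10.20 to 10.31 and 10.27 to 10.87, and Cdc45 at 4.24 to 4.37 and 4.20 to 4.63. The list's median difference was 1.85, or 2.74 with the array medians set equal.

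**Figure D5:**
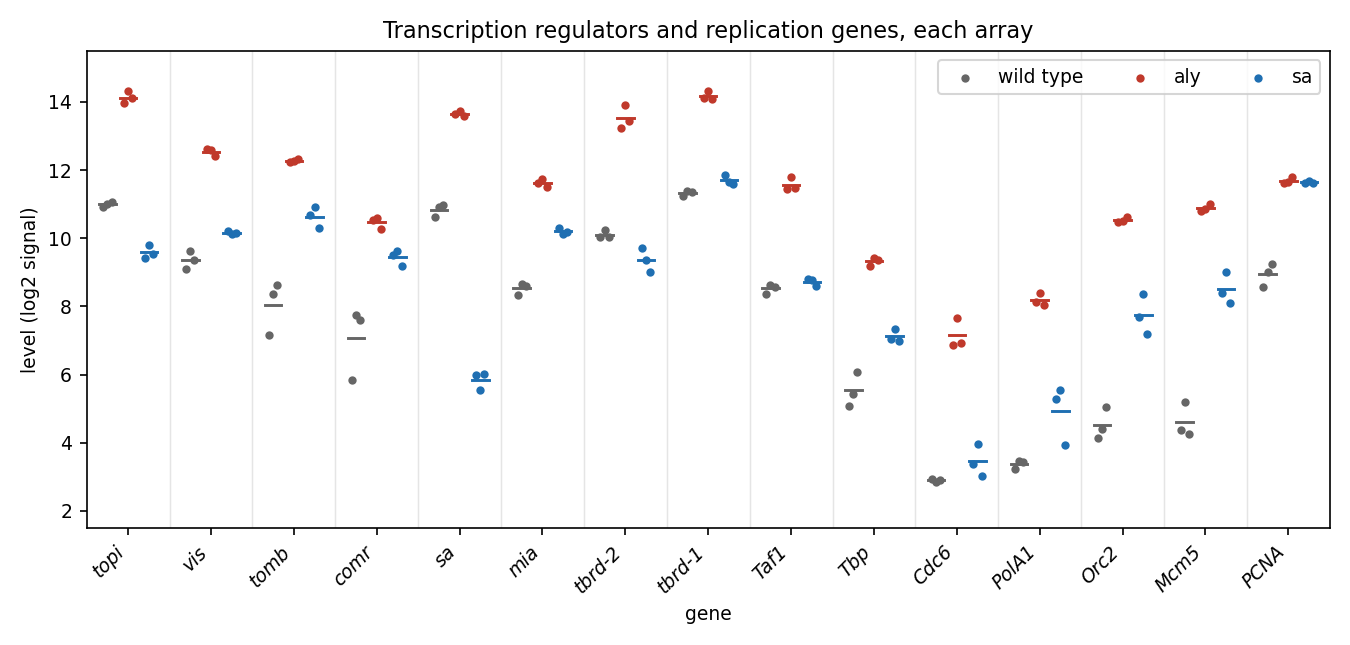
Points are the log2 levels of transcription regulators and DNA replication genes on each of 3 wild-type (grey), 3 aly (red) and 3 sa (blue) arrays, and bars are group means. For topi the aly arrays (13.95 to 14.32) lie above and the sa arrays (9.43 to 9.80) below wild type, Cdc6 in sa (3.04 to 3.95) lies near wild type, and PCNA is at 11.62 to 11.79 in both mutants.

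Of 17 measured markers of dividing spermatogonia and the early germ line, 0 were called higher in aly and 1, mei-P26, higher in sa. Among all genes, 3.75% and 10.4% were called, so this list is near the general share. Its median difference was 0.28. Past the adjusted p alone, 5 were higher in aly and 1 in sa, against 3154 and 2718 of all 18769 probe sets. At an unadjusted p under 0.05 the list had 6 and 2. Those on the aly side included bam, by 1.31, and its partner bgcn, by 1.00. The gap junction gene zpg lay at 8.79 to 9.09 in aly and 7.87 to 7.90 in sa, and piwi at 5.68 to 6.77 and 5.70 to 6.25. The summed signal of the list was 8102 to 8809 in aly and 5202 to 7280 in sa. The part that numbers of replicating cells have in the differences of the replication genes was not tested.

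By the same ranking, the first genes on the aly side after sa itself were CG15760, CG9988, CG10051, CG32369, CG10486, CG15160, Alp8, CG11034, CG14841, the rRNA pseudogene 18SrRNA-Psi:CR41602 and Patsas, with fitted differences of 5.02 to 6.43. CG10051 lay at 8.51, 8.67 and 8.44 in aly and at the lowest value on all sa and wild-type arrays, at least 46.5-fold higher in aly. The alkaline phosphatase gene Alp8 had the same pattern, with 8.02, 8.39 and 8.04 in aly, at least 35.5-fold. CG15760 lay at 8.84, 8.92 and 8.79 in aly, at 2.50 in wild type and 2.51 to 2.58 in sa, at least 57.6-fold higher in aly. CG10486 lay at 10.91, 10.99 and 10.88 in aly, 5.27, 5.97 and 5.45 in sa and 5.91 to 6.79 in wild type. CG32369 lay at 9.75 to 9.99 in aly and 4.13 to 4.67 in sa, and its further probe set stayed at the lowest value. CG9988, CG15160, the rRNA pseudogene and Patsas were likewise at 3.49 or less in wild type testes.

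A small group was lower in sa than in aly. Among the 26 probe sets lower in the mean of both mutants and lower in sa, of which 9 were called lower than wild type in aly on its own and in sa on its own, the first by that ranking were CG11034, TTLL4B, CG34460, Rpp14b, esg and CG13947. CG11034 lay at 8.29, 8.38 and 8.72 in aly, 8.28, 8.30 and 8.81 in wild type and 3.14, 3.40 and 3.41 in sa, so that the full wild-type level remained in aly and 2.82% in sa. CG34460 lay at 12.05, 11.95 and 12.11 in aly and 7.60, 7.78 and 7.76 in sa, from 12.23 to 12.58 in wild type. The tubulin ligase gene TTLL4B was at 7.48, 8.07 and 7.61 in aly and 3.05 to 3.08 in sa, but its brighter probe set was at 12.34 to 12.57 and 11.71 to 12.16, a difference of 0.58. The snail-family gene esg, needed to maintain the hub, was at 7.32, 6.99 and 5.99 in aly and 3.16, 2.79 and 2.73 in sa, from 6.82 to 7.75 in wild type. CG14841, lost in sa and not in the mean of both, lay at 11.92, 11.89 and 12.10 in aly, at 6.66, 7.33 and 6.59 in sa and at 10.85 to 11.43 in wild type.

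Cytoplasmic ribosomal proteins, as genes of general growth, gave a median difference of -0.03 over 41 measured members, or 0.86 with the array medians set equal. By call, 2 were higher in sa and 0 higher in aly, where 10.4% and 3.75% of all genes were. The 2 called higher in sa were testis paralogs, RpL10Aa at 9.20, 9.71 and 9.54 in sa and 2.40, 2.52 and 2.58 in aly, and RpS28-like at 7.33, 7.49 and 8.17 and 4.64, 4.22 and 3.89. The heat shock list had 0 of 5 called by limma, with 3 higher in sa at an adjusted p under 0.05, at most 0.57. Over all 18769 probe sets, 2718 were higher in sa by the adjusted p alone. The median of the heat shock list was -0.35, or 0.54 with the array medians set equal, so its sign differs between the scalings.

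Markers of other tissues differed little by call but not always by level. Among all genes, 10.4% were called higher in sa and 3.75% higher in aly, so 1 or 2 called members do not set a list below apart. All 19 measured accessory gland genes were lower in aly than in sa, with a median of -1.36 (-0.48 with the array medians set equal). By limma 0 had an adjusted p under 0.05 and 2 an unadjusted p under 0.05, and 1 was called under several of the alternatives, among them the fit to the 6 aly and sa arrays alone and the fit with 1 probe set per gene. Their summed signal was 12406 to 19808 in aly, 23487 to 62987 in sa and 25879 to 203613 in wild type, so the spread within a genotype was wide, and the part of that tissue in the differences above was not tested. Acp36DE, a seminal fluid gene, lay at 9.22, 8.24 and 6.92 in aly and 11.67, 11.25 and 10.57 in sa (adjusted p = 0.0502 from limma). Of 12 muscle genes, sls, at 7.57, 6.82 and 7.26 in sa and 4.52, 5.01 and 3.29 in aly, and Act87E (2.01) were higher in sa. Act87E fell short of 4-fold with the array medians set equal and without sa replicate 3 (1.75) or aly replicate 2 (1.93) or 3 (1.78). The summed muscle signal was 2483 to 4398 in aly and 4174 to 7554 in sa. Of 14 hub and cyst cell genes, the cadherin genes shg, at 8.59, 8.61 and 8.71 in sa and 5.60, 6.05 and 5.22 in aly, and CadN (2.84) were higher in sa and esg higher in aly, while the cyst cell gene tj and the hub gene upd1 lay near the lowest value on all arrays. Of 16 hemocyte and basement membrane genes srp was higher in sa and Hml higher in aly, and He and eater lay at the lowest value. Of 7 fat body genes apolpp, a lipoprotein gene, was higher in sa, at 8.10, 7.92 and 8.75 against 3.65, 3.50 and 4.39, from 11.19 to 11.75 in wild type, and Yp1 lay at the lowest value.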

How the data were processed

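Testis RNA of 12 arrays was analysed, 3 for each genotype. The authors deposited log2 signals per probe set made with GCRMA, which corrects background, quantile-normalizes the arrays and summarises probes. Its version and whether all arrays were run together are not given in the sources used here. The deposited array medians differ between genotypes (3.07 to 3.11 in aly, 3.91 to 4.02 in sa). On each of the 12 arrays, 28.5% to 32.4% of probe sets lay at the same lowest value. Joint normalization was not tested and is not taken as given. GCRMA compresses dim signals, so differences near the lowest value are bounds. No columns were left out.

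Of 18952 rows, 183 control probe sets were removed and no filter on dim signal was set. Of 18769 probe sets, 13647 had exactly 1 symbol (11982 genes). In limma 3.58.1 (R 4.3.3) a mean per genotype was fitted to all 12 arrays with lmFit and eBayes, with Benjamini-Hochberg adjustment over the 18769. The steps were tested on simulated data. In lists each gene counts once, by its brightest probe set on average. The members, lists and tests were chosen with earlier results of these data known. Named genes were the genotype checks, all G2/M and in situ genes, the 12 largest differences (or lower bounds) each way among called probe sets with 1 symbol, up to 5 called members per list with those against it, and the 6 largest each way among lost probe sets. Genes named outside the rule, such as PCNA, illustrate members that were not called and were chosen after their values were seen. Promoter sequences were not used here. Figures were drawn with matplotlib 3.10.9 in Python 3.11.15. The number of arrays limits the precision. Alternatives covered scaling, filters, thresholds, a replicate block and each array left out.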

Additional observations from a re-analysis of the deposited data

Results flagged for a closer look

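A total of 8 probe sets were called lower than wild type in aly and higher than wild type in sa, with a called difference between the mutants. Of these, 6 have 1 symbol. Dh44, a neuropeptide gene, lay at 7.40, 7.62 and 7.25 in wild type, 4.96, 4.41 and 4.88 in aly and 9.57, 9.43 and 9.66 in sa. Ir100a was at 5.60 to 6.45 in wild type, 2.27 in aly and 7.74 to 8.23 in sa, and D, a Sox family gene, at 3.67 to 5.40, 2.44 to 2.49 and 6.19 to 7.19. The transcription factor gene dimm lay at 3.50 to 5.41, 2.16 to 2.19 and 6.35 to 6.91, and lncRNA:CR43649 at 3.40 to 4.75, 2.11 and 5.97 to 7.08. For the actin nucleator gene spir, at 5.63 to 6.19, 2.88 to 3.66 and 8.72 to 9.10, a further probe set was higher in sa, at 7.61 to 8.43 against a mean of 4.36 in aly, and another higher in aly, at 6.36 to 7.01 against 4.02 to 5.15, so its probe sets disagree in direction. CycB was above wild type in sa and below it in aly as well, by less than 4-fold in sa. In the other direction, 1 probe set, that of sa, was called higher than wild type in aly and lower in sa. All mutant values are set against the same 3 wild-type arrays.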

How the results depend on the processing

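All counts are of probe sets called by limma. Higher in aly (556) became 1819 with array medians set equal, 913 after a further quantile normalization, 1940 with a 2-fold limit and 3154 with none, and higher in sa (1374) became 2718 with no fold limit. Lost and lower in sa (26) became 53, 44, 115 and 261 under those 4 settings, and 9 where the loss had to be called in aly and in sa each on its own. Leaving out 1 array gave 1320 to 1463 higher in sa, 507 to 631 higher in aly, 1077 to 1120 lost and lower in aly, and 23 to 30 lost and lower in sa. With array medians equal, all 556 stayed called and 1068 of the 1374 did. The requirement of a loss in each mutant and a limit of 8 on the wild-type mean were chosen after seeing the data. Replicate numbers did not pair aly with sa arrays (correlations of deviations 0.053, -0.271 and -0.077), and a replicate block gave 1370 higher in sa, 550 higher in aly, 1113 lost and lower in aly and 26 lost and lower in sa. Of 120 called probe sets that were named or belonged to a list, 10 lost the call with medians equal, among them CadN and Prosbeta4R1, 7 with only the 6 aly and sa arrays, 6 after quantile normalization, 4 with a floor of 4, and 10 with 1 array left out (klhl10, ORY, mei-P26, tef, Act87E, srp, eIF4G2, S-Lap7, Zw10 and COX6AL2). None of the 120 changed sign under the alternatives run. The cause of these changes was not tested. Dim signal limits the depth of loss, since the share of signals below 3 was 46.2% to 49.6% on the 6 arrays.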

Other observations

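Among genes with a probe set of their own, the share called higher in sa was 12.7% on chromosome arm 2L, 266 of 2427 genes on 2R, 9.64% on 3L, 10.3% on 3R, 9.23% on 4 and 7.85% on X. The share called higher in aly was 3.76%, 3.87%, 3.54%, 3.90%, 1.54% and 3.79% on the same arms. Several probe sets of mod(mdg4), a gene with many isoforms that acts in conjunction of chromosomes, differed from each other. The brightest lay at 12.38 to 12.44 in aly and 10.64 to 10.88 in sa, a difference of 1.69, another at 7.10 to 7.58 and 2.32 to 2.57, at least 20.0-fold, and one more at 10.38 to 10.55 and 10.54 to 10.81, with a difference of -0.17. The caspase activator gene Dark differed in both of its probe sets, at 10.10 to 10.49 in aly and 7.95 to 8.28 in sa for the brighter one (2.21) and 8.32 to 8.77 and 3.15 to 4.68 for the other (4.62).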
